A study of Homo sapiens with 12 samples.

Results

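The genes described here are the G1 cyclins and the inhibitors that restrain their kinases. They are the D-type cyclins CCND1, CCND2 and CCND3, the E-type cyclins CCNE1 and CCNE2, the CIP/KIP inhibitors CDKN1A (p21), CDKN1B (p27) and CDKN1C (p57), and the INK4 inhibitors CDKN2B (p15) and CDKN2C (p18). They were listed by gene symbol, with earlier results of these data known. All 10 were found among 62702 entries of the count table. Of these 10 members, 8 passed the count filter and entered the tests with 17677 genes in all; CCND2 and CDKN2B did not pass.

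RNA was measured in MCF10AT cells, a Ras-transformed derivative of the MCF10A human breast epithelial line. All cells carried a pair of prolactin receptors, the long form and the intermediate form (hPRLrL/hPRLrI), and in the deleted groups the I-tail, a stretch of the intermediate receptor, had been removed. Every culture spent 24 h without serum, in medium with albumin, and the treated ones were then exposed for 2 h to 250 ng/ml prolactin (PRL). The 4 groups were deleted I-tail with PRL, deleted I-tail untreated, intact I-tail with PRL and intact I-tail untreated, with 3 libraries each that the labels call biological replicates. The labels give neither the number of clones behind each receptor pair nor how the receptors were introduced. MCF10A cells are known to lack the chromosome 9 locus that holds CDKN2A and CDKN2B.

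Libraries held 36120808 to 57324865 counts. CISH, a STAT5 target that feeds back on the receptor, showed the PRL response of these libraries, with 59.4 ± 6.11 CPM with PRL and 4.57 ± 1.14 CPM untreated in deleted cells, and 60.5 ± 8.95 CPM with PRL and 3.83 ± 0.99 CPM untreated in intact cells (SD, n = 3). CPM stands for counts scaled to a common library total and corrected for composition (TMM). Of the 8 breast epithelial markers, led by KRT17, all averaged at least 1 CPM, and their summed level ran from 1842 to 10550 CPM across libraries. None of 5 leukocyte markers reached that mean (summed level at most 0.208 CPM), and 1 of 4 endothelial markers did, PECAM1 (summed level 1.14 to 3.09 CPM). Of 5 fibroblast markers, 3 did, with DCN highest (summed level 422 to 616 CPM); PDGFRA and COL1A2 stayed below 1 CPM.

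D-type cyclins bind CDK4 and CDK6 in response to mitogens and start the phosphorylation of the retinoblastoma protein. E-type cyclins then bind CDK2, complete that phosphorylation and release the E2F factors that drive entry into S phase. INK4 proteins displace D-type cyclins from CDK4 and CDK6, and CIP/KIP proteins hold CDK2 complexes inactive. In the mouse mammary gland, cyclin D1 is known for its part in lobuloalveolar growth during pregnancy, when prolactin signals, and CCND1 is often amplified in breast cancer.

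Promoter sequence was available from RefSeq (GRCh38.p14) for 6 of the 10 members, and not for CCND1, CCND2, CCNE2 and CDKN1C. The stretches below belong to the most abundant member per exon length of each of the 4 classes (CCND3, CCNE1, CDKN1A and CDKN2C) and are shown as a start region of the gene with the highest mean level in its class. Each is the exon-free part of the 250-base window before 1 annotated start, and CCND3 and CDKN2C have other starts. All are written 5′ to 3′ on the gene's strand. Capitals mark the SP1 motif (GGGCGG on either strand) and the E-box (CACGTG). The intervals are chr6:41941849-41942058 (minus strand) for CCND3, chr19:29811741-29811897 (plus) for CCNE1, chr6:36678560-36678657 (plus) for CDKN1A and chr1:50960495-50960744 (plus) for CDKN2C.
CCND3: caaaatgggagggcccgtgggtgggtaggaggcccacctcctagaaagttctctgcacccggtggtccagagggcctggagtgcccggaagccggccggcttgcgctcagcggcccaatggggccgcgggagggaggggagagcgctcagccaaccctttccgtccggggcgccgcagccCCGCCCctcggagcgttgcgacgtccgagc
CCNE1: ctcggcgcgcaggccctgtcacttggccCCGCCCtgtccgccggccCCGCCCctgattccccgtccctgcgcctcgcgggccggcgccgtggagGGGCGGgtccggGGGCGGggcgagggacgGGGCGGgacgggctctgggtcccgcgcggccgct
CDKN1A: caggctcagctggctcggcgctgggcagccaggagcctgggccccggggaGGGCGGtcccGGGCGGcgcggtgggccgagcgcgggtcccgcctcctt
CDKN2C: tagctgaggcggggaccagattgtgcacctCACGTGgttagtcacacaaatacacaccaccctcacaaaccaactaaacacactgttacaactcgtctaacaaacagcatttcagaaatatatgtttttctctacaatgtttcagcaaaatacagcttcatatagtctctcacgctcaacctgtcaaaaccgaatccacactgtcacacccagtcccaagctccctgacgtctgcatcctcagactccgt

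The CCNE1 stretch held 5 SP1 motifs, the CDKN1A stretch 2 and the CCND3 stretch 1, while the CDKN2C stretch held 1 E-box and no SP1 motif. GC content of these stretches followed the same order, at 83.4% for CCNE1, 81.6% for CDKN1A, 71.9% for CCND3 and 45.6% for CDKN2C. The full 250-base windows, annotated exon bases included, held 7 SP1 motifs for CCNE1, 4 for CDKN1A and 2 for CCND3. At the other starts, CCND3 had windows with 5 and 0 SP1 motifs (GC content 74.4% and 61.2%). CDKN2C had a window with 5 SP1 motifs (77.2%) and another with 1 SP1 motif and 1 E-box (48.8%). In full windows of that length, 42.6% of 35116 RefSeq promoters held the SP1 motif and 6.34% the E-box. The letters of a STAT site (TTCNNNGAA), which 6.57% of promoters hold, were in none of the 10 full windows of the 6 members. Nor were those of AP-1 (TGANTCA, 6.57% of promoters), the cyclic AMP element (TGACGTCA, 1.65%), FOXO (GTAAACA, 2.98%) or E2F (TTTCGCGC or TTTGGCGC, 0.968%). Both strands were searched, and the absence of these letters speaks of these windows only.

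Levels per exon length spanned several orders of magnitude. CDKN1A, which holds cells in G1 after stress signals, was the most abundant member, with a mean of 320 CPM per kb of exon over the 12 libraries (range 196 to 457). CCND3 followed with 29.6 (15.6 to 52.9) and CCND1 with 20.3 (9.97 to 36.5), whose ranges overlap. CDKN2C (9.81) and CDKN1B (8.01) stood close together, as did CDKN1C (2.54) and CCNE1 (2.46). CCNE2 averaged 0.0554 CPM per kb, and CCND2 and CDKN2B were at or near 0. In mean CPM, CDKN1A stood at percentile 99.3 of all tested genes, CCND3 at 94 and CCND1 at 89.5. Fewer cells that express a gene and less RNA per cell cannot be told apart in these bulk samples.

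**Figure D1:**
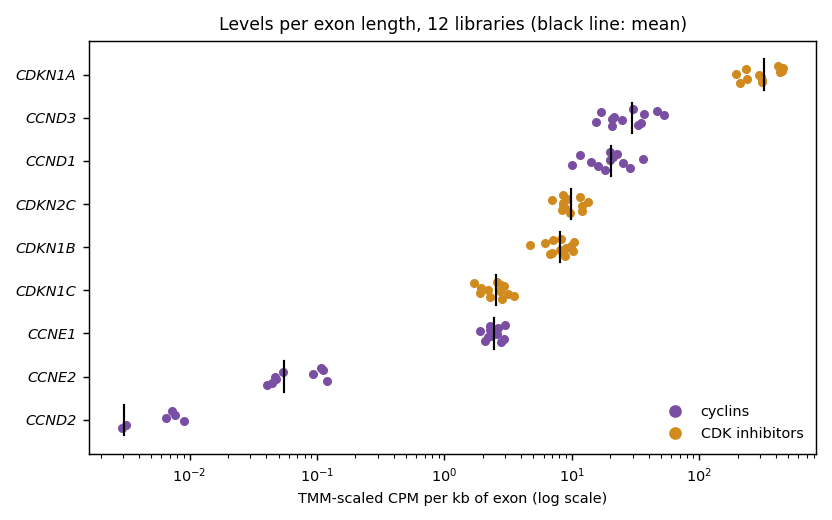
Level of 9 members in TMM-scaled CPM per kb of exon (horizontal axis, log scale), 1 point per library and a black line at the mean over 12 libraries, with cyclins in purple and inhibitors in orange. Zeros cannot be drawn on this axis and CDKN2B, at 0 throughout, is left out; CDKN1A lies apart from all others, from 196 to 457.

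In 3 of the 4 classes a single gene made up nearly all of the RNA summed over the members of that class. CDKN1A was 94.2% to 98.5% of the summed CIP/KIP level per kb across libraries, and CCNE1 was 94.8% to 100% of the E-type level. CDKN2C was 100% of the summed CDKN2B and CDKN2C level, because CDKN2B had 0 counts. CDKN2D, an INK4 gene outside the members, averaged 5.24 CPM over 1.503 kb of exon, against 32.6 CPM over 3.318 kb for CDKN2C. The D-type class was shared, with CCND3 at 49.8% to 68.6% and nearly all the rest CCND1, which was the larger in the second library of untreated deleted cells (25.1 CPM per kb, against 25.0 for CCND3). The D-type sum averaged 50.6 ± 11.4 CPM per kb with PRL and 36.8 ± 12.4 untreated in deleted cells, and 62.8 ± 24.4 with PRL and 49.3 ± 20.5 untreated in intact cells (SD, n = 3). Treated and untreated groups overlapped in both pairs.

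CCND1 (ENSG00000110092, chr11:69641087-69654474, plus strand, GRCh38) encodes cyclin D1. In deleted cells it had 88.1, 139 and 77.7 CPM with PRL, against 48.1, 121 and 67.9 CPM untreated. In intact cells it had 96.0, 176 and 102 CPM with PRL, against 55.6, 109 and 96.0 CPM untreated. The second library of each group was the highest of its group, and treated and untreated groups overlapped in both receptor pairs. Averaged over both pairs, the log2 difference PRL minus untreated was 0.44 ± 0.26 (SE; a 1.36-fold level, 95% interval 0.924 to 2.00), with an adjusted p of 0.98 in edgeR's quasi-likelihood test with Benjamini-Hochberg adjustment. Within the pairs it was 0.36 ± 0.37 in deleted cells and 0.52 ± 0.37 in intact cells. Its exons share 497 bases with LTO1 on the other strand, which had 338 to 655 counts per library against 2086 to 5899 for CCND1.

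CCND3 (ENSG00000112576, chr6:41934933-42050357, minus strand) encodes cyclin D3. It had 120.0, 191 and 204 CPM with PRL, against 90.6, 145 and 119 CPM untreated, in deleted cells. In intact cells the values were 124, 307 and 214 CPM with PRL, against 98.6, 272 and 175 CPM untreated. The first library of each group was the lowest, and the groups again overlapped. The averaged PRL effect was 0.39 ± 0.26 (1.31-fold, 95% interval 0.883 to 1.94, adjusted p = 0.98), with 0.54 ± 0.37 in deleted cells and 0.24 ± 0.37 in intact cells. Deleted cells stood lower than intact cells by an averaged log2 difference of -0.47 ± 0.26 (unadjusted p = 0.0963, adjusted p = 0.991).

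CCND2 (ENSG00000118971, chr12:4273772-4305350, plus strand), which encodes cyclin D2, was close to absent. Its counts were 0, 0 and 0 with PRL and 0, 1 and 1 untreated in deleted cells, and 3, 0 and 0 with PRL and 2, 2 and 3 untreated in intact cells. The 12 counts in all lie at or under a floor of 3 counts per library, which corresponds to 0.0521 to 0.0897 CPM, so no comparison is made.

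Of the E-type cyclins, CCNE1 (ENSG00000105173, chr19:29811898-29824308, plus strand) had the smallest spread of the members. In deleted cells it had 7.13, 5.31 and 7.50 CPM with PRL, against 5.63, 5.87 and 6.63 CPM untreated; in intact cells it had 6.48, 4.81 and 5.85 CPM with PRL, against 6.70, 5.76 and 7.60 CPM untreated. The highest library exceeded the lowest 1.58-fold, against 3.66-fold for CCND1. Its SD of log2 CPM over the 12 libraries, 0.202, lay at percentile 13 of all tested genes. The averaged PRL effect was -0.04 ± 0.15 and its interval, -0.38 to 0.29 on the log2 scale, was the narrowest of the members.

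CCNE2 was read from few counts, with 8, 0 and 8 with PRL and 23, 10 and 9 untreated in deleted cells, and 19, 8 and 0 with PRL and 21, 0 and 27 untreated in intact cells. In deleted cells the treated libraries, at 0.178, 0 and 0.195 CPM, lay just below the untreated ones, at 0.531, 0.211 and 0.204 CPM, without overlap, and 8.26% of tested genes had groups apart in that comparison. The averaged PRL effect was -0.93 ± 0.88 (adjusted p = 0.98). CCNE2 shares 1629 exon bases with INTS8 on the other strand, which had 109 to 442 counts per library. The sources used here do not say whether counting used strand, so reads from the shared bases cannot be assigned.

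**Figure D2:**
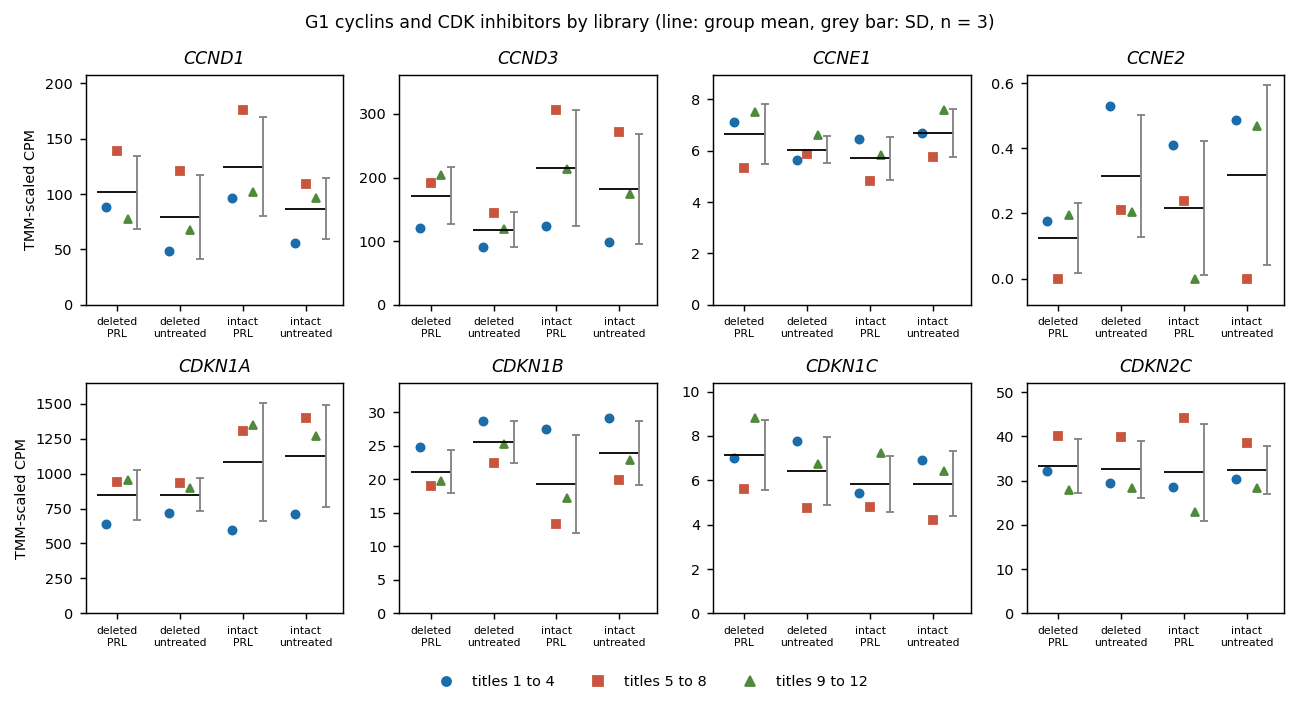
TMM-scaled CPM (vertical axis, from 0) of the 8 members that passed the count filter, 1 point per library, in the 4 groups. The black line is the group mean, the grey bar its SD (n = 3), and colour and shape mark libraries with titles 1 to 4, 5 to 8 and 9 to 12; CCND1 and CDKN2C are highest in titles 5 to 8 within every group, and CDKN1A is lowest in titles 1 to 4.

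CDKN1A (ENSG00000124762, chr6:36676460-36687339, plus strand) encodes the general CDK inhibitor p21. In deleted cells it had 638, 941 and 955 CPM with PRL, against 717, 933 and 897 CPM untreated. In intact cells it had 597, 1302 and 1350.2 CPM with PRL, against 709.6, 1394 and 1269 CPM untreated. Means with and without PRL lay close together in both pairs, and the averaged PRL effect was -0.03 ± 0.22 (0.979-fold, 95% interval 0.7 to 1.37, adjusted p = 0.991). Deleted cells averaged lower in both treatments, with 845 ± 179 CPM against 1083 ± 421 CPM in intact cells under PRL, and 849 ± 116 CPM against 1124 ± 365 CPM in intact cells without it (SD, n = 3). That averaged difference, -0.38 ± 0.23, did not pass the test (unadjusted p = 0.113, adjusted p = 0.991). DINOL, an RNA on the other strand that shares 146 exon bases, had 3 to 41 counts per library against at least 27677 for CDKN1A.

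CDKN1B (ENSG00000111276, chr12:12715058-12722371, plus strand) encodes p27, which accumulates in cells deprived of mitogens. In deleted cells it had 24.8, 19.0 and 19.7 CPM with PRL, against 28.8, 22.5 and 25.4 CPM untreated. In intact cells it had 27.5, 13.3 and 17.2 CPM with PRL, against 29.1, 19.9 and 22.9 CPM untreated. The averaged PRL effect was -0.29 ± 0.18 (0.818-fold, 95% interval 0.628 to 1.07, adjusted p = 0.98), with -0.27 ± 0.25 in deleted and -0.31 ± 0.25 in intact cells. The groups overlapped in both pairs.

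CDKN1C (ENSG00000129757, chr11:2883213-2885773, minus strand), an imprinted gene whose product p57 is linked to differentiation, ranged from 4.19 to 8.79 CPM. It averaged 7.14 ± 1.58 CPM with PRL and 6.41 ± 1.54 CPM untreated in deleted cells, and 5.82 ± 1.26 CPM with PRL and 5.85 ± 1.46 CPM untreated in intact cells (SD, n = 3). The averaged effect was 0.07 ± 0.20 for PRL and 0.21 ± 0.20 for the deletion, and neither passed the test (adjusted p = 0.983 and 0.991).

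Among the INK4 genes, CDKN2C (ENSG00000123080, chr1:50960745-50974633, plus strand) ranged from 23.0 to 44.1 CPM. It averaged 33.4 ± 6.10 CPM with PRL and 32.5 ± 6.46 CPM untreated in deleted cells, and 31.9 ± 10.9 CPM with PRL and 32.5 ± 5.39 CPM untreated in intact cells (SD, n = 3). These 4 means lay within 1 SD of each other, and the averaged PRL effect was 0.01 ± 0.17 (adjusted p = 0.997). CDKN2B (ENSG00000147883, chr9:22002903-22009363, minus strand) had 0 counts in all 12 libraries, as had CDKN2A and the antisense CDKN2B-AS1 of the same locus. A count of 0 allows up to 0.0521 to 0.0897 CPM per library, which covers counting error only.

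Across the comparisons, none of the 8 tested members passed an adjusted p of 0.05 for the averaged PRL effect, which 0.119% of all tested genes passed (21 genes). None had an unadjusted p under 0.05 either, against 3.81% of all tested genes, and DESeq2 called none. The counts were also 0 for PRL in deleted cells and in intact cells (each 0.017% of tested genes) and for the averaged deletion effect and the deletion in either treatment (each 0.00566%). No gene passed for the difference between the PRL effects (0%). At an unadjusted p under 0.05 the members' counts were again 0, while 1.79% of tested genes passed for PRL in deleted cells, 2.55% for PRL in intact cells, 2.28% for the averaged deletion effect, 1.62% for the deletion under PRL, 0.837% for the deletion untreated and 0.718% for the difference between the PRL effects. Apart from CCNE2 in deleted cells, no tested member had groups that did not overlap, which held for 0.679% of tested genes over all treated and untreated libraries, 5.49% for PRL in intact cells, 0.187% for all deleted and intact libraries, 4.95% for the deletion under PRL and 5.49% for the deletion untreated. With so few genes called, 0 of 8 is what a share near the background gives and describes nothing particular to these members. For the averaged PRL effect 4 of the 8 members lay above 0, and 46.1% of all tested genes did.

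**Figure D3:**
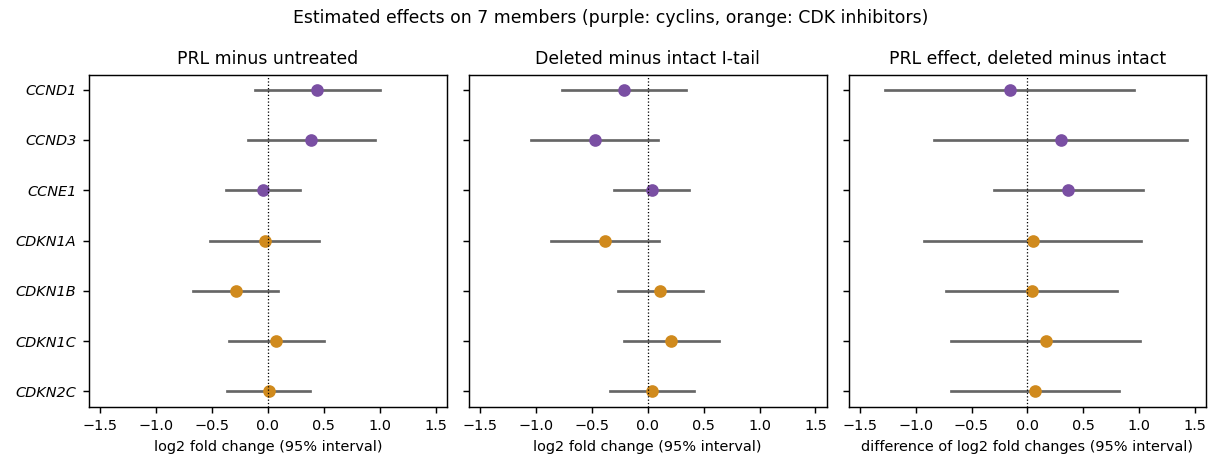
Estimated log2 fold changes (points) with 95% intervals (lines) of the 7 members with over 100 counts in every library, for PRL minus untreated and for deleted minus intact I-tail, each averaged over the other factor, and for the difference between the PRL effects. Cyclins are purple and inhibitors orange; every interval contains 0, and those of the right panel are the widest.

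The precision of these comparisons is limited by replicate spread. The median half-width of a 95% interval over all tested genes was 0.486 on the log2 scale for the 2 averaged effects, 0.687 and 0.688 for PRL in deleted and intact cells and 0.971 for their difference. The upper bounds of the averaged PRL interval were 2.00-fold for CCND1 and 1.94-fold for CCND3, and the lower bound was 0.628-fold for CDKN1B.

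Whether the I-tail deletion altered the PRL effect was read from the difference between the PRL effects, deleted minus intact. It was -0.16 ± 0.52 for CCND1, 0.30 ± 0.53 for CCND3, 0.37 ± 0.31 for CCNE1 and -0.72 ± 1.76 for CCNE2. Among the inhibitors it was 0.05 ± 0.45 for CDKN1A, 0.04 ± 0.35 for CDKN1B, 0.16 ± 0.39 for CDKN1C and 0.06 ± 0.35 for CDKN2C. Every adjusted p was 1 in edgeR's quasi-likelihood test with Benjamini-Hochberg adjustment. The 95% interval ran from -1.27 to 0.95 for CCND1 and from -0.84 to 1.43 for CCND3. Differences within these bounds are compatible with this fit.

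For the deletion itself, averaged over both treatments, CCND3 and CDKN1A had the smallest unadjusted p of the members. CCND3 stood at -0.32 ± 0.37 under PRL and -0.62 ± 0.37 untreated, and CDKN1A at -0.36 ± 0.32 under PRL and -0.40 ± 0.32 untreated, with an adjusted p of 1 throughout. CCND1 averaged -0.21 ± 0.26, CDKN1B 0.11 ± 0.18, CCNE1 0.04 ± 0.15, CDKN2C 0.04 ± 0.17 and CCNE2 -0.40 ± 0.88.

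The 12 titles are numbered, and each run of 4 consecutive titles (1 to 4, 5 to 8, 9 to 12) holds 1 library of every group; the labels do not call these runs a batch or a pairing. Much of the spread of the members followed these runs. CCND1 had 48.1 to 96.0 CPM in the first run, 109 to 176 CPM in the second and 67.9 to 102 CPM in titles 9 to 12. CDKN1A had 597 to 717 CPM in the first run, 933 to 1394 CPM in the second and 897 to 1350 CPM in titles 9 to 12. CCND3 had 90.6 to 124 CPM in the first, 145 to 307 CPM in the second and 119 to 214 CPM in titles 9 to 12. CDKN1B was lowest in the second run, at 13.3 to 22.5 CPM, against 24.8 to 29.1 CPM in the first and 17.2 to 25.4 CPM in titles 9 to 12.

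CDKN2C was highest in the second run (38.6 to 44.1 CPM) and lower in the first (28.5 to 32.2 CPM) and in titles 9 to 12 (23.0 to 28.5 CPM), with no overlap between the second and the others. The number of genes with counts also differed, at 24477 to 25200 in the first run, 19073 to 23119 in the second and 21761 to 23895 in titles 9 to 12. The part of that difference in the members' levels was not tested.

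Within the runs, where a treated library is set against the untreated one of the same run and receptor pair, CCND1 was higher with PRL in 6 of 6 pairs, by 0.09 to 0.87 on the log2 scale. The largest differences were in the first run, at 0.87 in deleted and 0.79 in intact cells. CCND3 was higher in 6 of 6, by 0.18 to 0.77. CDKN1B was lower in 6 of 6, by -0.58 to -0.08. Of all tested genes, 8.37% were higher in 6 of 6 and 6.05% lower in 6 of 6, so such a pattern is not rare in this table. CCNE1 was higher in 2, CDKN1A and CDKN2C in 3 and CDKN1C in 4 of 6.

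For the deletion, CCND3 was lower in deleted than in intact cells in 6 of 6 pairs of a run (-0.91 to -0.05; 2.99% of tested genes), and CDKN1C was higher in 6 of 6 (0.07 to 0.37; 4.04%). CDKN1A was higher in 2 of 6, both in the first run, and stood at -0.58 to -0.47 in the other 4. CCND1 was higher in 1 of 6.

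With a term for these runs in the edgeR fit, the SE of the averaged PRL effect of CCND1 fell to 0.12, against 0.26 without the term. The effects were 0.47 ± 0.12 for CCND1 (unadjusted p = 0.00106, adjusted p = 0.0711), 0.39 ± 0.11 for CCND3 (adjusted p = 0.121) and -0.31 ± 0.09 for CDKN1B (adjusted p = 0.167). For the deletion they were -0.39 ± 0.11 for CCND3 (adjusted p = 0.317) and -0.32 ± 0.11 for CDKN1A (adjusted p = 0.322). No member was called in this fit, in which 198 genes were called for the averaged PRL effect. The interaction in that fit was -0.08 ± 0.23 for CCND1 and 0.27 ± 0.22 for CCND3 (adjusted p = 1).

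**Figure D4:**
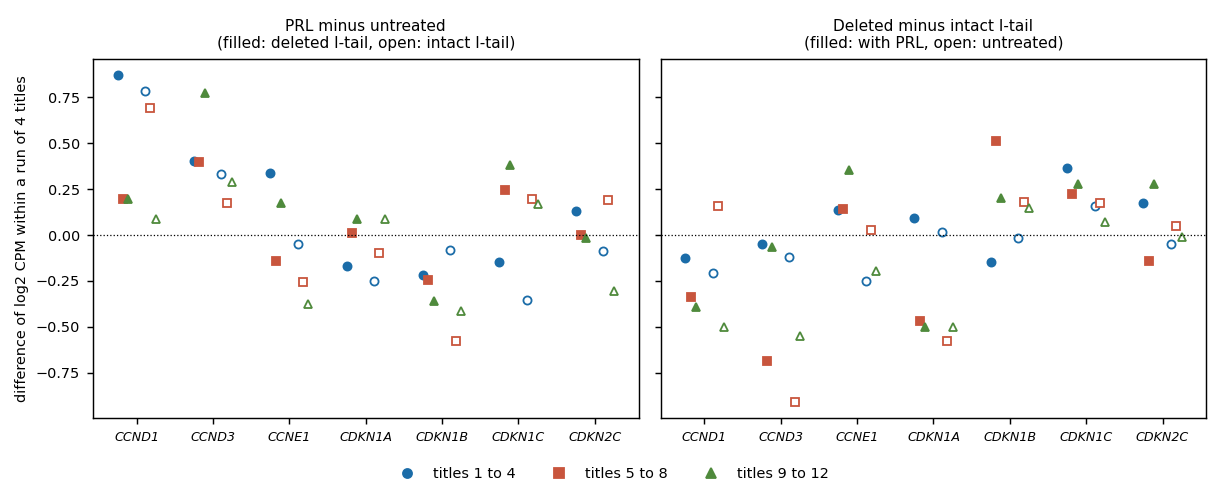
Difference of log2 CPM between 2 libraries of the same run of 4 titles (vertical axis), for PRL minus untreated (left) and deleted minus intact I-tail (right), in 7 members; colour and shape mark the run. All 6 points of CCND1 and CCND3 lie above 0 on the left and all 6 of CDKN1B below it, and on the right all 6 of CCND3 lie below 0 and all 6 of CDKN1C above it.

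The members' profiles over the 12 libraries were compared by the root-mean-square distance of centred log2 CPM, in which libraries share their run and depth. Among member pairs the smallest distance was 0.257, between CCNE1 and CDKN1C, followed by CCNE1 and CDKN1B at 0.274 and CCND3 and CDKN1A at 0.296. CCND1 and CCND3 stood at 0.346, and CCND3 and CDKN1B, which ran in opposite directions across the runs, at 0.846. Flat genes lie close to each other by this measure.

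Among other genes with a mean of at least 1 CPM, the profile nearest to CCND1 was that of ETV5, an ETS transcription factor (distance 0.168), then SHB (0.219). Nearest to CCND3 were YIF1A (0.111) and POLRMT (0.115), to CDKN1A the cytokine gene LIF (0.0765) and SESN2, a stress-responsive sestrin (0.0909), and to CDKN1B MTX2 (0.0729) and GPBP1L1 (0.0783). CDKN2C lay nearest to MCM3, a subunit of the replicative helicase (0.0761), and HIRIP3 (0.102). CCNE1 lay nearest to GLRX3 (0.087) and RPS27L (0.0963), CDKN1C to ESF1 (0.142) and ANXA1 (0.151), and the sparsely counted CCNE2 to GTF2H2C (0.707) and LINC01806 (0.833).

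The rest of the G1 pathway was read from a list of 51 genes, of which 50 were tested. None passed in any of the 7 comparisons. The G1 kinases and their activators had a median PRL effect of 0.03, with CDK4 at 0.16 ± 0.19, CDK6 at -0.04 ± 0.18 and CDK2 at -0.01 ± 0.19. The 3 pocket proteins, which bind E2F factors, all lay below 0 (median -0.23), with RB1 at -0.07 ± 0.21, RBL1 at -0.53 ± 0.30 and RBL2 at -0.23 ± 0.18. In this comparison 46.1% of all tested genes lay above 0. Genes of cyclin and inhibitor degradation had a median of -0.05, with SKP2, the F-box protein that targets p27, at -0.17 ± 0.16 and BTRC at -0.28 ± 0.16. E2F factors and partners had a median of 0.07, with E2F4 at 0.31 ± 0.15 and E2F1 at 0.35 ± 0.37.

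S phase and mitosis markers had a median PRL effect of 0.32, with 9 of 10 above 0, MKI67 at 0.43 ± 0.41 and PLK1 at 0.58 ± 0.49. Without the second library of intact cells with PRL, 5 of 10 lay above 0 and the median was 0.0032. That library had the fewest genes with counts, 19073. Over all tested genes the median of the averaged effect was -0.02, and 46.1% lay above 0. In deleted cells alone 9 of 10 markers lay above 0 (median 0.39), against 47.2% of all tested genes. In intact cells alone 8 of 10 did (median 0.23), against 48.4%.

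Among upstream regulators, KLF6, a Krüppel-like factor known to activate CDKN1A, had the smallest p of the list, at 0.64 ± 0.13 (adjusted p = 0.112). It was 0.49 ± 0.18 in deleted and 0.79 ± 0.18 in intact cells. Treated and untreated libraries were apart in both, as they were for 8.26% of tested genes in deleted cells and 5.49% in intact cells. KLF6 passed for the averaged PRL effect without the count filter (adjusted p = 0.0385), in DESeq2 (0.000491) and with the term for title runs (0.00248). It also passed for PRL in intact cells in DESeq2 (0.0122) and with that term (0.0176). KLF6 did not pass in any comparison with the other scalings, with the stricter filter or on leaving out any library. Next to KLF6, the smallest p in deleted cells belonged to CDKN3 (0.77 ± 0.35, unadjusted p = 0.0466), E2F4 (0.33 ± 0.21) and CDK1 (0.72 ± 0.46), and in intact cells to RBL1 (-0.76 ± 0.43), E2F2 (0.99 ± 0.61) and FBXO4 (-0.47 ± 0.31), all with an adjusted p of 1. MYC stood at -0.15 ± 0.35 and FOXO3 at 0.02 ± 0.16.

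For the deletion, the 50 genes had a median of 0.01, against 0.03 over all tested genes. E2F1, an activating E2F factor, had the smallest p of the list (-0.81 ± 0.37, unadjusted p = 0.047, adjusted p = 0.991). It was followed by TFDP2 at 0.23 ± 0.14, RBL2 at 0.29 ± 0.18 and the helicase subunit MCM5 at -0.43 ± 0.28. PLK1 stood at -0.66 ± 0.49 and passed without the count filter alone (adjusted p = 0.0302). Under PRL the smallest p belonged to E2F1 (-0.96 ± 0.52), CDK2 (-0.38 ± 0.27), RBL2 (0.37 ± 0.26) and TFDP2 (0.26 ± 0.19). Untreated, they belonged to E2F8 (1.29 ± 0.79), FOXO4 (0.21 ± 0.14), KLF6 (0.25 ± 0.18) and E2F1 (-0.66 ± 0.52). In the difference between the PRL effects, E2F8, an atypical E2F repressor, had the smallest p of the list (-2.14 ± 1.11, adjusted p = 1), followed by CDK2 at -0.68 ± 0.38, the phosphatase CDKN3 at 0.76 ± 0.49 and E2F2 at -1.15 ± 0.86.

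**Figure D5:**
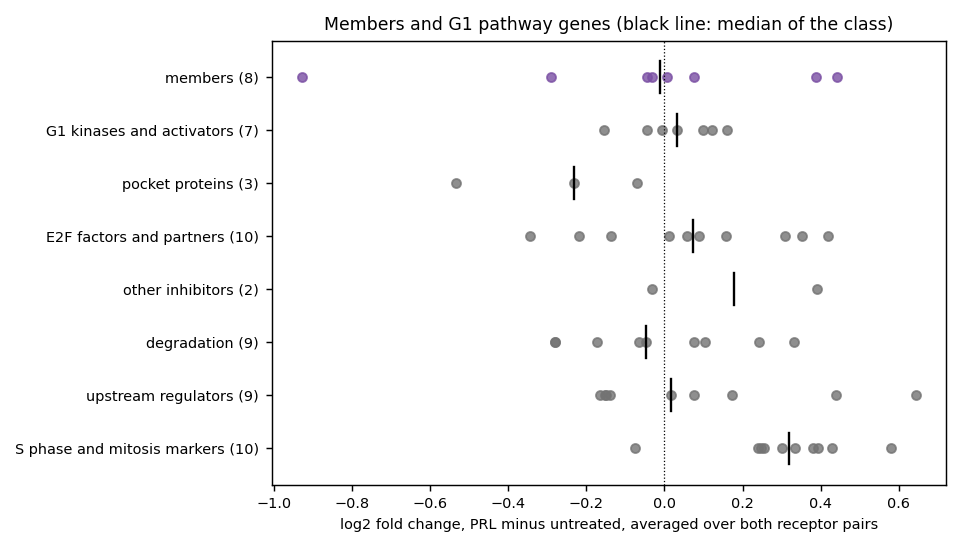
Averaged PRL effect (log2 fold change, horizontal axis) of the 8 tested members and of 50 tested pathway genes by class, 1 point per gene, with a black line at the class median. Members span -0.93 (CCNE2) to 0.44 (CCND1), and the pathway gene farthest to the right is KLF6 at 0.64.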

How the data were processed

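RNA of 12 libraries of MCF10AT cells was analysed, 3 per group per the labels, which give polyA selection and a Universal Plus mRNA-Seq kit. The deposited table gives raw counts for each Ensembl gene in each library. Per the submitters' processing notes, the tools were FastQC, STAR 2.7.9a and featureCounts (Subread), with build GRCh38. Which annotation, strand option and filters the counting used was not given in the sources used here. Of 62703 entries, 1 without values was left out, and 62624 matched a symbol. Replicate numbers follow title order.

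In R 4.3.3 with edgeR 4.0.16 and limma 3.58.1, filterByExpr chose the genes, TMM scaled the libraries, and the fit had 1 mean per group over all 12 libraries, without covariate (8 residual degrees of freedom). The 7 contrasts were tested by the robust quasi-likelihood F test with Benjamini-Hochberg adjustment over 17677 genes at 0.05. Members, pathway list and tests were chosen with earlier results of these data known. Named are all members, the 4 pathway genes of smallest p per comparison (further class examples were chosen after their values were seen), the 2 nearest profiles per member and CISH. Log2 CPM use a prior count of 2. Exon lengths and gene coordinates are from GENCODE 29. Alternatives were other scalings and filters, DESeq2 1.42.0, a term for title runs and leaving out each library; their values for pathway genes were added after the data were seen. For 1 pathway gene no values are reported here. Simulated data for the averaged PRL effect had genes raised or lowered on the log2 scale. Of 50 genes each, 49 raised by 2, 39 raised by 1, 49 lowered by 2 and 34 lowered by 1 were called. Of 17022 unchanged genes, 11 were called. Only genes with a mean of at least 1 CPM were changed. Counts were drawn independently, without the shared deviations of libraries in a run of 4 titles. Chi-square per degree of freedom between replicates was 51.17 to 212.3.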

Additional observations from a re-analysis of the deposited data

How the results depend on the processing

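No member was called for any comparison under any alternative run. The labels carry no replicate numbers, so runs of 4 titles were the only pairing tried, as a term in the fit and as differences within runs. Deviations from the group means correlated at 0.241 to 0.836 between same-run libraries (over 0.1 in 18 of 18 pairs), against -0.693 to 0.536 between runs. Of 609 member values under the alternatives, 551 kept their direction and 58 reversed, 54 of them on leaving out a library. The cause was not tested. These values held the averaged effects and the interaction of all tested members. PRL effects within a receptor pair entered for CCND1, CCND3 and CDKN1B only, and deletion effects within a treatment for CCND3 and CDKN1A only. The averaged PRL effects of CCND1 (0.28 to 0.67), CCND3 (0.22 to 0.61) and CDKN1B (-0.46 to -0.18) kept their direction on leaving out each library, as did the averaged deletion effects of CCND3 (-0.62 to -0.29) and CDKN1A (-0.53 to -0.30). Other settings reversed the averaged PRL effect of CDKN1C (-0.051 with library size only) and of CDKN2C (-0.10 with library size only, -0.0028 with the stricter filter, -0.011 with title runs). Scaling by library size only moved the median of all genes to -0.12 for the averaged PRL effect, against -0.02, and to 0.11 for the averaged deletion effect, against 0.03. Leaving out each library gave averaged PRL effects of -0.093 to 0.038 for CCNE1, -0.15 to 0.12 for CDKN1A, -0.012 to 0.16 for CDKN1C and -0.15 to 0.11 for CDKN2C. It gave averaged deletion effects of -0.037 to 0.088 for CCNE1, -0.70 to 0.052 for CCNE2, -0.010 to 0.28 for CDKN1B and -0.089 to 0.16 for CDKN2C. It gave interactions of -0.44 to 0.29 for CCND1, -0.13 to 0.66 for CCND3, -1.31 to 0.18 for CCNE2, -0.24 to 0.29 for CDKN1A, -0.16 to 0.38 for CDKN1B, -0.016 to 0.35 for CDKN1C and -0.13 to 0.38 for CDKN2C. CCND3 ranged from -0.11 to 0.68 for PRL in intact cells and from -0.60 to 0.0055 for the deletion under PRL. CCNE2 was not tested under the stricter filter.

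Counts over all genes moved more. For the averaged PRL effect 21 genes were called, against 124 without the filter, 86 in DESeq2, 198 with title runs and 11 to 27 on leaving out a library. For PRL in deleted cells 3 were called, against 1 with library size only, 33 without the filter, 21 in DESeq2, 57 with title runs and 1 to 5 on leaving out a library. For PRL in intact cells 3 were called, against 1, 46, 21, 62 and 1 to 4 under the same settings. For the averaged deletion 1 gene was called, against 33 without the filter, 10 in DESeq2, 11 with title runs and 1 to 2 on leaving out a library. For the deletion untreated and with PRL 1 gene was called each, against 0 with library size only, 6 and 4 without the filter, 4 and 2 in DESeq2, and 0 to 1 on leaving out a library. The interaction gave 0 throughout. Depth limits CCND2 and CCNE2, whose counts per library were at most 27. CDKN2B had 0 counts in all 12 libraries, and the part of depth in that was not tested.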
